A study of Mus musculus with 10 samples.

Results

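The nuclear-encoded subunits of the mitochondrial respiratory chain and ATP synthase were examined in nonclassical monocytes of mice with and without LAIR1. Members were the protein-coding genes whose mouse symbol begins with Nduf followed by a subunit letter and number, Sdha to Sdhd, Uqcr, Cyc1, Cox4 to Cox8 or Atp5. The rule took 83 of the 52636 genes in the count table: 36 of complex I, 4 of complex II, 9 of complex III, 17 of complex IV and 17 of complex V. Ndufa3 and Cox6b2 also match by symbol but start below 7.5 Mb on chromosome 7, the region that holds Lair1, and the rule leaves them out.

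The libraries came from 5 LAIR1KO samples (genotype LAIR1-/-) and 5 WT samples (genotype LAIR1+/+), all untreated and all from bone marrow. LAIR1 is a collagen-binding receptor that restrains leukocytes, and nonclassical monocytes are the patrolling monocyte subset. Each sample was 5000 to 10000 sorted cells taken through a low-input RNA preparation. The sources used here do not give sex, age, strain background or how the allele was made.

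Complexes I and II pass electrons from NADH and succinate to ubiquinone, complex III passes them on to cytochrome c, and complex IV, cytochrome c oxidase, passes them to oxygen. Complexes I, III and IV move protons across the inner membrane, and complex V, the ATP synthase, makes ATP from the return flow. Complex II is built from nuclear genes alone. Mitochondrial DNA encodes a few central subunits of the other complexes, and the nucleus encodes the remaining ones, from catalytic subunits to small accessory proteins. Several complex IV subunits and the membrane ring subunit c of complex V are each encoded by more than 1 nuclear gene.

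Total counts were 12106209 to 15356924 per library, and 13469 genes passed the filter on low counts. Lair1 was at 0 to 0.673 CPM (counts scaled to library size, here with TMM factors) in LAIR1KO libraries, against 328 to 400 CPM in WT libraries (two-sided exact permutation test of the means, p = 0.00794, n = 5 each). Of 12 markers of nonclassical monocytes, all were detected and all were below 0 on the log2 scale (LAIR1KO minus WT), with a median of -0.26. None was called in either direction, though 3 were called lower without LAIR1KO replicate 3. Their summed level was 7734 to 10652 CPM in LAIR1KO libraries and 9792 to 12612 CPM in WT libraries. Other cell type markers moved with genotype. All 10 myeloid progenitor markers were called higher, with a summed level of 3232 to 6877 CPM in LAIR1KO libraries and 542 to 1425 CPM in WT libraries. All 16 mitosis genes were called higher (712 to 1434 CPM summed in LAIR1KO, 354 to 499 CPM in WT), and the 7 macrophage markers tested were all called lower (176 to 250 CPM in LAIR1KO, 643 to 1150 CPM in WT). Among the other lists, 4 of 7 erythroid, 3 of 6 dendritic cell and 1 of 3 platelet markers tested were called lower. Called higher were 2 of 4 classical monocyte markers, 1 dendritic cell marker and the 1 T and NK cell marker tested. Of 5 B cell and 8 neutrophil markers 0 were called. The dendritic cell marker called higher was Flt3, which is also 1 of the 10 progenitor markers. Ccr2, the most abundant classical monocyte marker, was below 0, with 423 ± 59.4 CPM in LAIR1KO and 648 ± 187 CPM in WT (SD, n = 5 each). It was not called (log2 fold change -0.62, edgeR adjusted p = 0.0588). Leaving out 1 library gave 0 to 1 classical monocyte markers called lower. The erythroid calls numbered 0 without LAIR1KO replicate 1, 4 or 5 or WT replicate 2 or 3, and 1 without LAIR1KO replicate 2 or 3. The T and NK cell call was lost without LAIR1KO replicate 5 or WT replicate 1 or 3. No marker was at 0 in all libraries. Their part in the results on the subunits was not tested, and in such bulk samples fewer cells of a type and less RNA per cell cannot be told apart.

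Few respiratory chain subunits passed the test between genotypes. Of the 75 subunits tested, 1 was called higher in LAIR1KO, Atp5b, and 0 were called lower (edgeR quasi-likelihood test, Benjamini-Hochberg adjusted p under 0.05 over all 13469 genes). That is 1.33% of the subunits, against 6.79% of all genes tested, of which 5.11% were called higher and 1.68% lower. In the abundance range that held most subunits, 8.08% of genes were called. An unadjusted p under 0.05 was reached by 6 subunits that were higher and 10 that were lower, 21.3% of the subunits beside 21.8% of all genes.

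The median size of the log2 fold change (LAIR1KO minus WT), without its sign, was 0.155 for the subunits, 0.182 for genes in the same abundance range and 0.214 for all tested genes. Its 95% interval lay within 1 of 0 for 74 of the 75 subunits and within 0.5 for 56, or 98.7% and 74.7%, beside 89.1% and 46.4% of genes in that abundance range. The exception to the wider limit was Cox6a2, the striated-muscle form of subunit 6a, at 5.00 ± 1.07 CPM in LAIR1KO and 6.99 ± 3.88 CPM in WT (SD, n = 5 each), with an interval of -1.17 to 0.21. The median log2 fold change of the subunits was -0.11, and that of all tested genes was -0.0018, with 22 subunits above 0 and 53 below. By complex the medians were -0.11 for complex I, 0.03 for complex II, -0.10 for complex III, -0.18 for complex IV and -0.05 for complex V. Scaling by library totals in place of TMM raised the median of all genes to 0.13 and that of the subunits to 0.02, so their distance of -0.11 stayed the same while the sign of the subunit median turned.

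**Figure D1:**
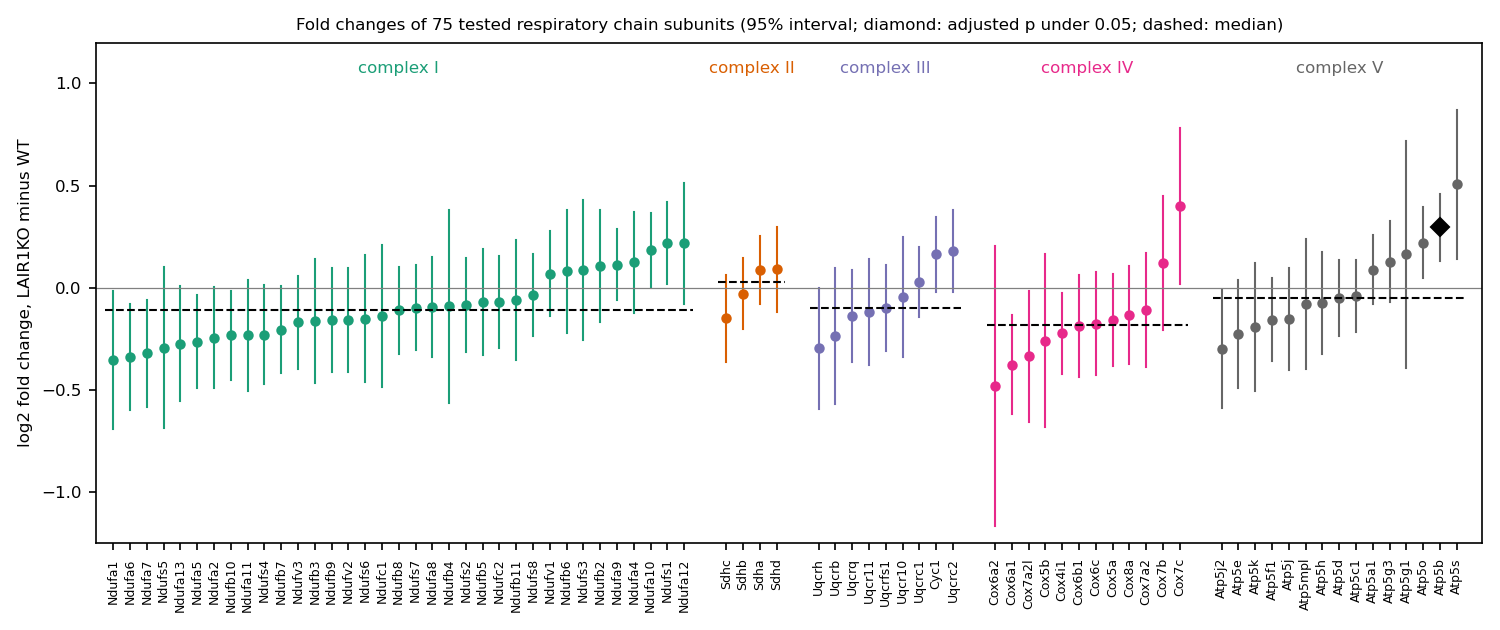
Log2 fold change (LAIR1KO minus WT, y axis) with its 95% interval for each of the 75 tested subunits, grouped by complex and ordered by value within it; dashed lines are medians, and the black diamond is the subunit with an edgeR adjusted p under 0.05. Atp5b alone is called, and most points lie a little below 0 with intervals that hold 0 for 59 subunits.

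Complex V, the ATP synthase, held the called subunit. Atp5b (ENSMUSG00000025393, GRCm38 chr10:128083273-128090391, plus strand) encodes the catalytic beta subunit of the F1 head. It was at 855, 830, 826, 795 and 895 CPM in the LAIR1KO libraries, against 675, 691, 651, 743 and 661 CPM in the WT libraries. The lowest LAIR1KO library lay above the highest WT library, so the groups did not overlap. The means were 840 ± 37.4 CPM in LAIR1KO and 684 ± 36.1 CPM in WT (SD, n = 5 each), a log2 fold change of 0.30 ± 0.08 (SE, 95% interval 0.13 to 0.46, edgeR adjusted p = 0.0349). The direction held in each of the 23 alternative settings, with values from 0.22 to 0.43. The call did not hold in 15 of them, including 8 of the 10 fits that left out 1 library, where adjusted p reached 0.0908; it held without LAIR1KO replicate 3 and without WT replicate 4.

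The partner subunits of Atp5b in the F1 head did not pass the test. Atp5a1, the alpha subunit that alternates with beta around the head, was at 704 to 798 CPM in LAIR1KO and 669 to 750 CPM in WT, with overlapping groups and a log2 fold change of 0.09 ± 0.08 (edgeR adjusted p = 0.563). Atp5c1, the gamma subunit of the rotating central stalk, had 178 ± 11.2 CPM in LAIR1KO and 183 ± 10.7 CPM in WT. Of the 5 genes of the F1 head and central stalk, 2 were above 0 and 3 below, with a median of -0.04. Whether Atp5b differs from Atp5a1 in its response was not tested.

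Atp5o encodes the oligomycin sensitivity-conferring protein, which joins the head to the peripheral stalk. It was at 86.6, 86.6, 78.8, 84.7 and 82.5 CPM in LAIR1KO, against 70.6, 68.7, 70.1, 77.1 and 72.8 CPM in WT. These groups did not overlap either, but the gene missed the threshold (log2 fold change 0.22 ± 0.08, edgeR adjusted p = 0.128). The antisense genes D430001F17Rik and Gm15976 lie opposite 17.55% and 18.05% of its exon length. With the strand setting unknown, their reads cannot be told apart from those of Atp5o. The same limit applies to other members with antisense genes, among them Ndufb6 (39% of exon length), Ndufa13 (30.0%) and Uqcrc2 (19.75%). The remaining 3 peripheral stalk genes, Atp5f1, Atp5h and Atp5j, were between -0.16 and -0.07. Atp5s, a low-level gene annotated as coupling factor B and not a structural subunit, had the highest fold change among the 75 tested members. It was at 11.2, 11.1, 10.4, 8.80 and 12.4 CPM in LAIR1KO, against 8.95, 8.08, 8.18, 5.86 and 6.89 CPM in WT. Only LAIR1KO replicate 4 and WT replicate 1 overlapped (log2 fold change 0.51 ± 0.17, edgeR adjusted p = 0.0965).

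The small subunits of the ATP synthase membrane part lay below 0. Atp5j2, subunit f, was the lowest of them at 37.1 ± 3.76 CPM in LAIR1KO and 45.7 ± 8.02 CPM in WT (log2 fold change -0.30 ± 0.13, edgeR adjusted p = 0.215). The 3 tested genes of this kind ranged from -0.30 to -0.08. Of the genes for subunit c, Atp5g3 had a log2 fold change of 0.13 and Atp5g1 of 0.16, and neither passed.

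Complex IV had the lowest median. Cox6a1, a small regulatory subunit of cytochrome c oxidase, had the smallest p of all lower subunits. It was at 158, 136, 159, 126 and 125 CPM in LAIR1KO, against 215, 187, 179, 182 and 150 CPM in WT. Only WT replicate 5 fell within the range of the LAIR1KO libraries. The means were 141 ± 16.5 CPM in LAIR1KO and 183 ± 23.2 CPM in WT, and the log2 fold change of -0.38 ± 0.11 missed the threshold (edgeR adjusted p = 0.0644). The gene passed without LAIR1KO replicate 3 (edgeR adjusted p = 0.0409), without WT replicate 5 (0.0356) and with DESeq2 (0.0166). No fit turned its direction. When the trend with GC content and exon length was removed from every library, its log2 fold change shrank to -0.20 ± 0.14 (edgeR adjusted p = 0.431).

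Cox4i1, the largest nuclear subunit of the complex, was at 293, 286, 272, 246 and 249 CPM in LAIR1KO, against 345, 338, 278, 324 and 286 CPM in WT. The 2 lowest LAIR1KO libraries were replicates 4 and 5, the 2 lowest WT libraries were replicates 3 and 5, and the groups overlapped (log2 fold change -0.22 ± 0.09, edgeR adjusted p = 0.180). Cox6b1, an intermembrane-space subunit, had 153 ± 17.4 CPM in LAIR1KO and 174 ± 23.9 CPM in WT (edgeR adjusted p = 0.376). Cox7a2l, a factor that joins complexes into supercomplexes, had a log2 fold change of -0.34 ± 0.15 (edgeR adjusted p = 0.211). Of the 10 forms used by most tissues, 8 were below 0 and 2 above, and Cox7c at 0.40 ± 0.18 was the higher of those (edgeR adjusted p = 0.207). Its WT replicate 4, at 17.9 CPM, lay well above the other WT libraries at 11.5 to 13.1 CPM, and all its coding sequence recurs in other genes.

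Complex I has 7 nuclear-encoded core subunits, which hold the flavin, the iron-sulphur clusters and much of the quinone site, and many accessory subunits around them. Among the core subunits 3 were above 0 and 4 below, with a median of -0.03. Ndufs1, the largest, was the highest of the 7 with 99.1, 113, 118, 108 and 127 CPM in LAIR1KO, against 96.4, 106, 88.2, 95.6 and 101 CPM in WT (log2 fold change 0.22 ± 0.09, edgeR adjusted p = 0.193). The groups overlapped. Of 28 accessory subunits tested, 6 were above 0 and 22 below, with a median of -0.15.

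Ndufa6, an accessory subunit of the LYR family, had the smallest p of complex I. It was at 59.9, 57.6, 68.0, 56.1 and 48.9 CPM in LAIR1KO, against 85.8, 82.1, 62.1, 68.8 and 68.5 CPM in WT. WT replicate 3 lay within the LAIR1KO range, and the log2 fold change was -0.34 ± 0.12 (edgeR adjusted p = 0.115; DESeq2 adjusted p = 0.04999). Ndufa7, another accessory subunit, was at 44.9, 43.7, 44.3, 43.7 and 35.2 CPM in LAIR1KO, against 64.8, 54.4, 46.0, 53.5 and 45.7 CPM in WT. It was the 1 subunit whose LAIR1KO libraries all lay below the WT libraries, by a margin of under 1 CPM (log2 fold change -0.32 ± 0.12, edgeR adjusted p = 0.144). Ndufa10, an accessory subunit with a nucleoside kinase fold, was at 89.0, 88.4, 96.4, 85.4 and 99.6 CPM in LAIR1KO, against 84.1, 80.8, 75.6, 83.6 and 78.9 CPM in WT. Its LAIR1KO libraries all lay above the WT libraries, and it did not pass (log2 fold change 0.19 ± 0.08, edgeR adjusted p = 0.215). Over all complexes, 3 subunits had LAIR1KO libraries wholly above WT (Ndufa10, Atp5b, Atp5o) and 1 wholly below, beside 5.61% of all tested genes above and 2.06% below.

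Complex II, which is also the succinate dehydrogenase of the citric acid cycle, had the smallest median size of fold change with TMM scaling (0.0885 on the log2 scale, without sign). With library totals its median was 0.159, beside 0.0196 to 0.0805 for complexes I, III and V. Sdha, the flavoprotein, was at 416, 405, 463, 445 and 448 CPM in LAIR1KO, against 440, 406, 390, 417 and 396 CPM in WT. The groups overlapped, with a log2 fold change of 0.09 ± 0.08 (95% interval -0.08 to 0.25, edgeR adjusted p = 0.563), and the sign turned to -0.0045 when the trend with GC content and exon length was removed from every library. Sdhb, the iron-sulphur subunit, had 192 ± 10.7 CPM in LAIR1KO and 196 ± 12.1 CPM in WT. The membrane anchors Sdhc and Sdhd had log2 fold changes of -0.15 ± 0.10 and 0.09 ± 0.10 (edgeR adjusted p = 0.417 and 0.646).

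In complex III the core proteins and cytochrome c1 lay above 0 and the small subunits below. The core proteins Uqcrc1 and Uqcrc2 were at 0.03 and 0.18, and Cyc1, cytochrome c1, was at 0.16. Uqcrc2 had 119, 101, 120, 101 and 102 CPM in LAIR1KO, against 102, 94.0, 94.1, 103 and 86.8 CPM in WT, with overlapping groups (edgeR adjusted p = 0.277). Uqcrfs1, the Rieske iron-sulphur protein, was at -0.10. The 5 small subunits were all below 0, from -0.30 to -0.04. Uqcrh, the hinge protein between cytochromes c1 and c, was the lowest, with 48.9 ± 7.97 CPM in LAIR1KO and 60.1 ± 8.50 CPM in WT (log2 fold change -0.30 ± 0.14, edgeR adjusted p = 0.226). Uqcr10 was near 0 at -0.04, and its sign turned under 5 alternative settings.

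**Figure D2:**
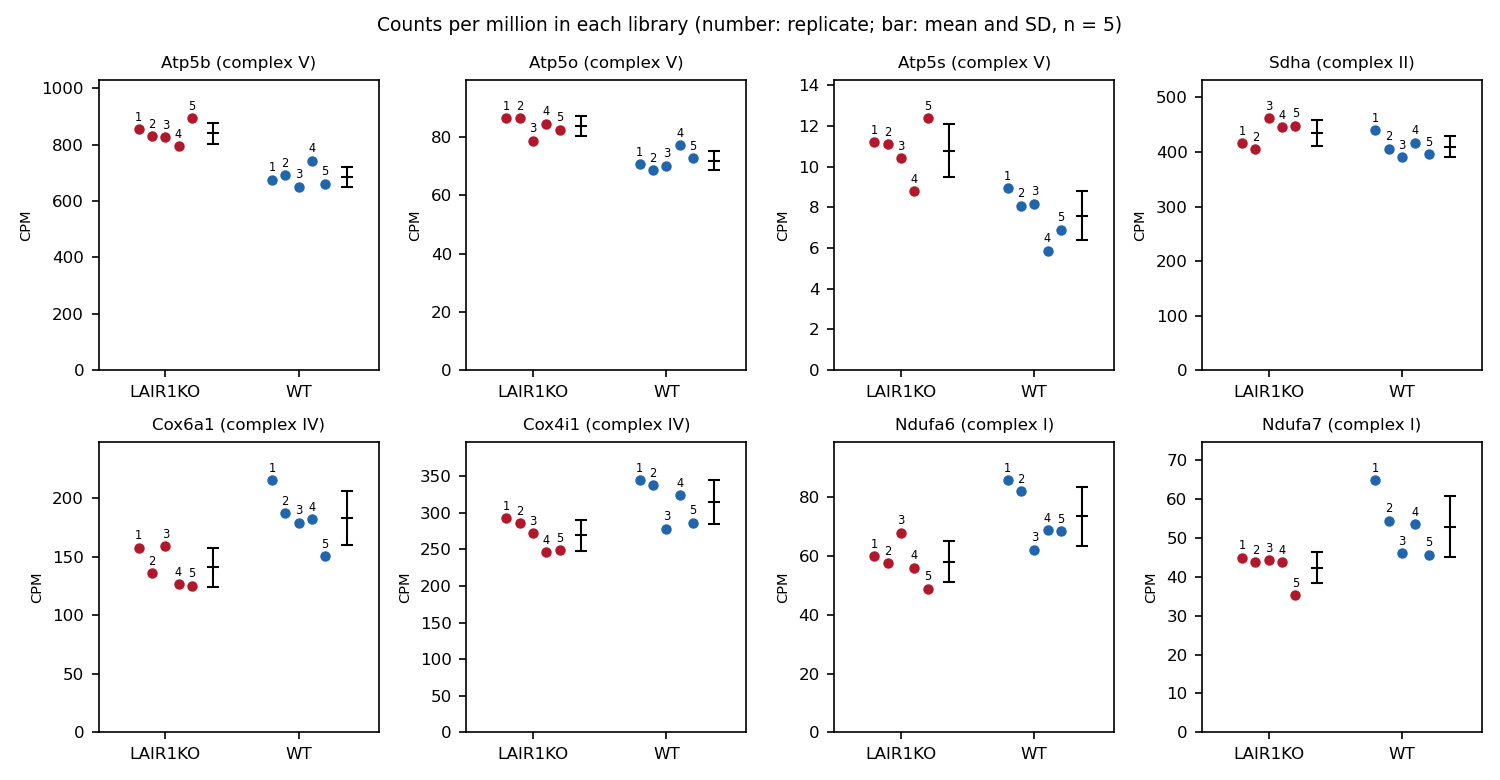
CPM (y axis, from 0) of 8 subunits in each library, LAIR1KO left and WT right, numbered by replicate, with the mean and SD of 5 libraries beside them. Atp5b and Atp5o do not overlap between genotypes, Ndufa7 does not overlap by a narrow margin, and Cox6a1, Cox4i1, Ndufa6, Atp5s and Sdha overlap.

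Fold changes also differed with the length of the coding sequence. Of the 12 subunits with at least 900 coding bases, 10 were above 0, with a median log2 fold change of 0.10, and of the 63 shorter ones 12 were above 0, with a median of -0.14. Complex IV has no subunit of that length. The longest subunits under the limit, Atp5c1, Sdhb and Uqcrfs1, were at -0.04, -0.03 and -0.10. Shares above 0 by coding length were not counted over all tested genes. With library totals 11 of the 12 long subunits (median 0.23) and 29 of the 63 short ones (median -0.0109) were above 0. The rank correlation between coding length and fold change over the 75 subunits was 0.41 (Spearman rho, a description, since the subunits share their libraries). The 900-base limit was chosen after the values were seen. Removing the trend with GC content and exon length from every library left a correlation of 0.28, with 8 of the 12 long and 16 of the 63 short subunits above 0. With that trend removed Atp5b was at 0.22 and was not called (edgeR adjusted p = 0.126).

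**Figure D3:**
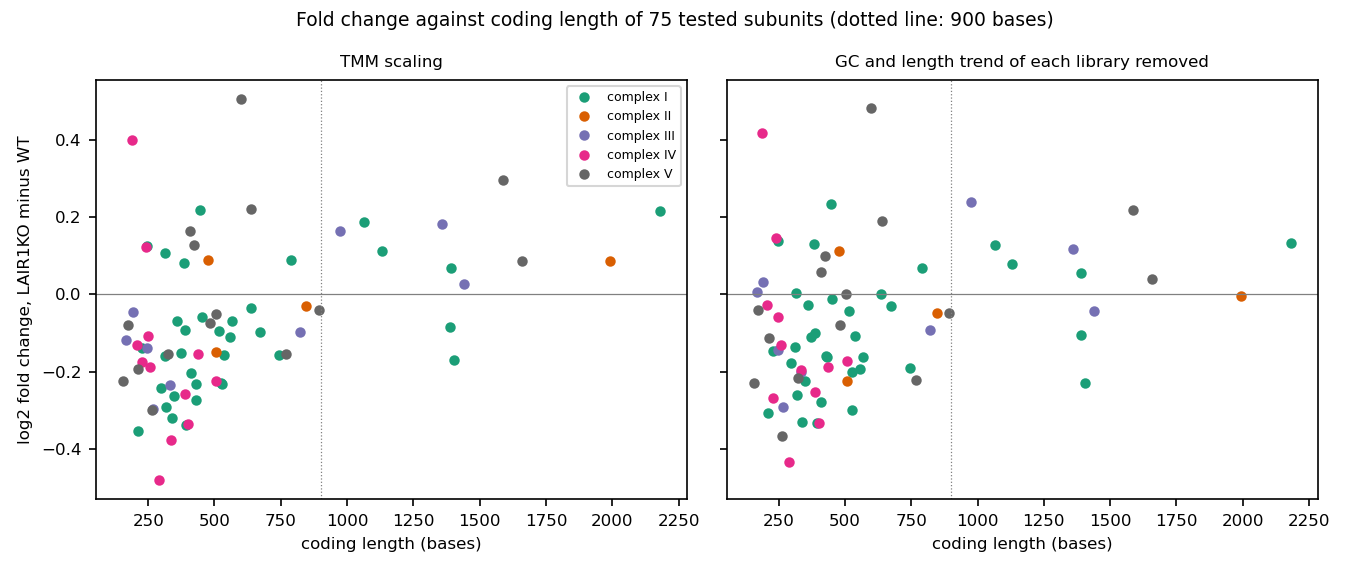
Log2 fold change (LAIR1KO minus WT, y axis) of the 75 tested subunits against coding length in bases (x axis), with TMM scaling at left and with each library's GC and length trend removed at right; colours mark the complexes and the dotted line 900 bases. Left of the line most points are below 0, and right of it 10 of 12 are above 0 at left and 8 of 12 at right.

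Most subunits had their lowest value in the same few libraries of a genotype. Of the 75 tested subunits, 61 were lowest among the LAIR1KO libraries in replicate 4 or 5, and 67 were lowest among the WT libraries in replicate 3 or 5. The same count was not made over all tested genes, so whether this is particular to the subunits is not known. Summed over complex IV the levels were 1089, 1036, 1087, 911 and 903 CPM in LAIR1KO, against 1312, 1241, 1041, 1189 and 1002 CPM in WT. The LAIR1KO libraries 4 and 5 lay below all WT libraries, and the other 3 lay among them. Summed over complex V the levels were 2626 ± 84.7 CPM in LAIR1KO and 2466 ± 114 CPM in WT (SD, n = 5 each). Of these sums Atp5b alone made up 840 CPM in LAIR1KO and 684 CPM in WT. Of the 15 tested members of complex V, 6 were above 0 and 9 below. Over all subunits the sums were 8061 ± 399 CPM in LAIR1KO and 8192 ± 582 CPM in WT (SD, n = 5 each). LAIR1KO replicates 4 and 5 also had the highest summed progenitor markers, 5500 and 6877 CPM, beside 3232 to 3999 CPM in the other LAIR1KO libraries. The WT libraries did not show this order. WT replicates 3 and 5 had 542 and 757 CPM of progenitor markers, beside 636, 1425 and 829 CPM in WT replicates 1, 2 and 4. A link between progenitor markers and subunit levels was not tested. Without LAIR1KO replicates 4 and 5 the median log2 fold change of the subunits was -0.03, and without WT replicates 1 and 4 it was -0.04. Both shifts follow in part from the choice of libraries. The left-out LAIR1KO libraries were the lowest of their group for most subunits. WT replicates 1 and 4 were the highest WT libraries for 39 and 18 subunits. The SD between libraries of the mean log2 level of the tested subunits was 0.117, and the median log2 fold change with all libraries was -0.11. That SD describes single libraries, so it does not measure the error of a shift in a difference between groups.

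The subunits encoded by mitochondrial DNA spread further between libraries and none passed. Their summed level was 2677, 2948, 2223, 1437 and 1940 CPM in LAIR1KO, against 3992, 3063, 1875, 2706 and 2383 CPM in WT. LAIR1KO replicate 4 was the lowest library and WT replicate 1 the highest, and the groups overlapped. All 9 tested genes were below 0, with a median of -0.42 and 0 called. The most abundant, mt-Cytb of complex III, had 929 ± 233 CPM in LAIR1KO and 1090 ± 299 CPM in WT (edgeR adjusted p = 0.559). Of the 13 genes, mt-Nd3, mt-Nd4l, mt-Co2 and mt-Atp8 were removed by the filter on low counts. Among those tested, mt-Co3 (0.668 CPM in LAIR1KO, 0.944 in WT) and mt-Atp6 (1.09 and 2.36) were far below mt-Co1 (211 and 282). The sums therefore hold little from these 6 genes. Sequence that they share with other genes was not examined.

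**Figure D4:**
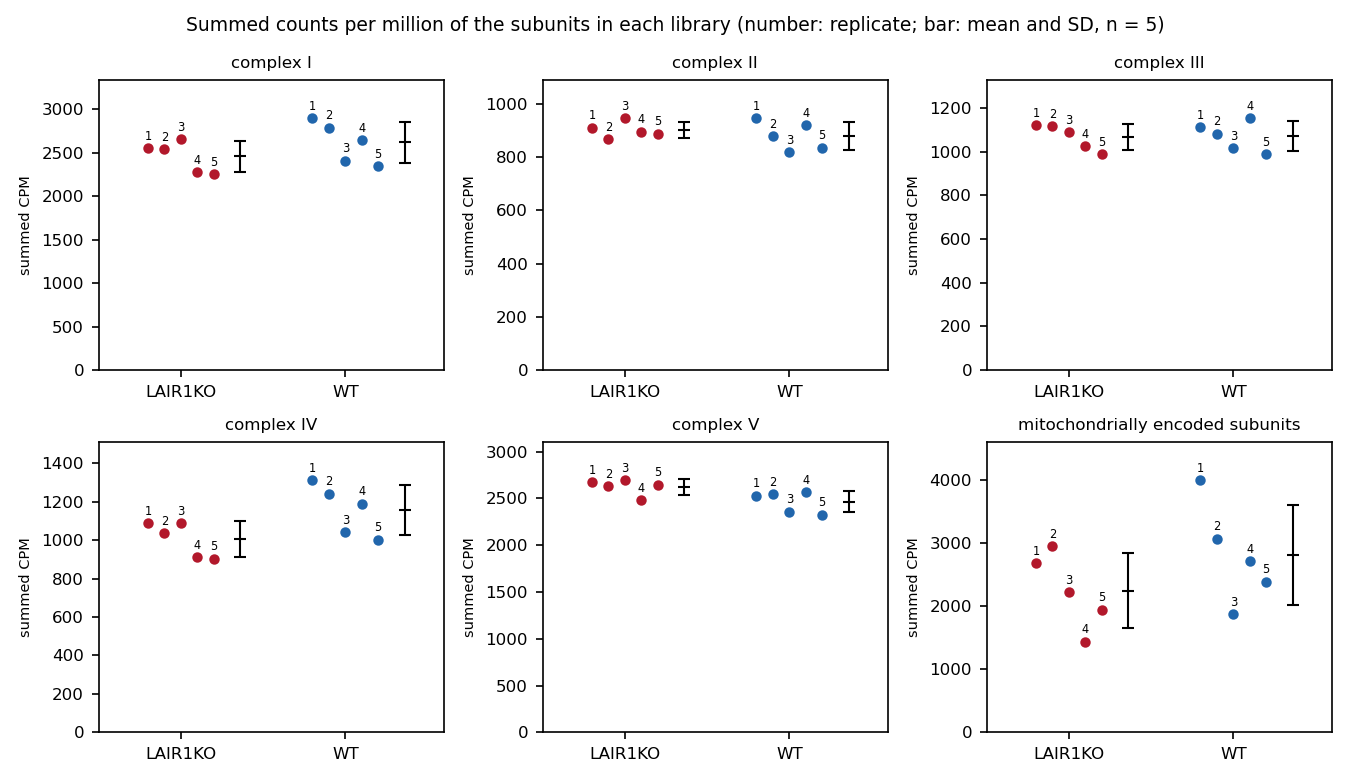
Summed CPM (y axis, from 0) of the nuclear-encoded subunits of each complex and of the mitochondrially encoded subunits in each library, LAIR1KO left and WT right, numbered by replicate, with the mean and SD of 5 libraries. LAIR1KO replicates 4 and 5 are the lowest of their group in complexes I, III and IV, and all 6 panels overlap between genotypes.

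Per kilobase of exon, which allows levels of different genes to be compared, the most abundant subunits were Atp5a1 at 241 ± 13.4 CPM per kb in LAIR1KO and 227 ± 11.8 in WT, Cox6b1 at 216 ± 24.5 in LAIR1KO and 245 ± 33.7 in WT, and Cox6a1 at 201 ± 23.6 in LAIR1KO and 260 ± 33.0 in WT. The next were Cox8a, a small membrane subunit of complex IV, Cox4i1 and Atp5b. Most neighbours in this order differed by less than the sum of their SDs in both genotypes. The exceptions were Atp5a1 and Cox6a1 in LAIR1KO, and Cox4i1 and Atp5b, whose order differed between genotypes (174 ± 13.7 and 198 ± 8.82 CPM per kb in LAIR1KO, 203 ± 19.5 and 161 ± 8.53 in WT). In complex I Ndufa2 and Ndufa1 led, at 156 and 129 CPM per kb in LAIR1KO and 185 and 164 in WT. In complex II it was Sdhd and Sdha, and in complex III Uqcr10 and Uqcrfs1. The order depends on the length used: with coding length 5 of these 10 leading subunits remained among the leading pair of their complex, and with the longest transcript 6 did.

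In both genotypes the form used by most tissues was the abundant member of each isoform group. Cox6a1 was 27.3-fold above the muscle form Cox6a2 per kb in LAIR1KO and 25.3-fold in WT. Cox7a2 was 167-fold above the muscle form Cox7a1 in LAIR1KO and 179-fold in WT. Cox8b and Cox8c had 0 counts in all 10 libraries, where 3 counts, the limit that a count of 0 allows, come to 0.191 to 0.252 CPM per library, while Cox8a was at 101 to 132 CPM in LAIR1KO and 106 to 151 CPM in WT. Cox7b2 had 2 counts over the LAIR1KO libraries and 3 over the WT libraries, beside 23.9 ± 1.28 CPM in LAIR1KO and 22.0 ± 4.60 CPM in WT for Cox7b. Ndufa4l2, a hypoxia-induced relative of Ndufa4, had 0 counts over the LAIR1KO libraries and 1 over the WT libraries. Ndufa4 itself, which is named as a complex I subunit but is now placed in complex IV, was at 126 ± 9.73 CPM in LAIR1KO and 116 ± 18.5 CPM in WT.

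Cox4i2, the lung form of subunit 4 that is induced by low oxygen, was removed by the filter on low counts but differed in its few reads. It had 7, 12, 5, 2 and 8 counts in LAIR1KO, against 0, 2, 1, 0 and 0 counts in WT. Only LAIR1KO replicate 4 and WT replicate 2, at 2 counts each, met. From totals of 34 counts in LAIR1KO and 3 in WT, the ratio of scaled levels was 10.1 (exact binomial 95% interval 3.19 to 51.6, counting error only), and in the fit with no filter the gene did not pass (edgeR adjusted p = 0.130). The level stayed at 0.464 ± 0.247 CPM in LAIR1KO and 0.0485 ± 0.0743 CPM in WT, beside 269 ± 21.2 CPM in LAIR1KO and 314 ± 30.2 CPM in WT for Cox4i1. The gene was singled out after its counts were seen.

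Several subunits were far lower than their partners in the same complex, and their sequence recurs elsewhere in the genome. Respiratory chain genes have many processed pseudogenes, so reads from such stretches match several places. Each coding sequence was therefore divided into overlapping windows of 50 bases and searched for in the transcripts of all other annotated genes. In 13 members over 50% of coding windows recurred, with a median level of 11.5 CPM per kb, in 21 members a smaller share did, with a median of 39.5, and in 49 members none did, with a median of 53.5. Ndufb4, Cox7c, Atp5g2 and Atp5l shared all of their coding windows, and Atp5g1 shared 99.7%. To show what is shared, 1 coding window each is given for 3 of them on the GRCm38 build (GENCODE M21 transcripts), from Atp5l at chr9:44913416-44913465, Atp5g2 at chr15:102665806-102665855 and Cox7c at chr13:86045788-86045837, all on the minus strand.
Atp5l: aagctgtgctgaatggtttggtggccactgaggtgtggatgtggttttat
Atp5g2: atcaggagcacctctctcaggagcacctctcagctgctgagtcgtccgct
Cox7c: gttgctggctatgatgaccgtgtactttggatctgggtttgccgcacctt
The Atp5l window occurs in 9 other genes, and the Atp5g2 and Cox7c windows in 2 each, all of them annotated as pseudogenes. Atp5l, subunit g of the ATP synthase, had 17 counts over the LAIR1KO libraries and 14 over the WT libraries, and Atp5g2 had 3 over the LAIR1KO libraries and 4 over the WT libraries. Atp5g3, which encodes the same mature subunit c but shares none of its coding windows, was at 64.2 CPM per kb in LAIR1KO and 58.7 in WT. That is 72.4-fold above Atp5g1 in LAIR1KO and 74.1-fold in WT. The ratio depends on the length used: the exon union is 4912 bases for Atp5g1 and 2181 for Atp5g3, while coding lengths are 408 and 423. Without length scaling Atp5g3 was at 140 CPM in LAIR1KO and 128 CPM in WT, and Atp5g1 at 4.35 and 3.89 CPM. The sources used here do not say how the authors treated reads with several matches, so the levels of genes with shared windows are uncertain. The median log2 fold changes of the tested members were -0.16 with over 50% shared, -0.15 with less and -0.09 with none.

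**Figure D5:**
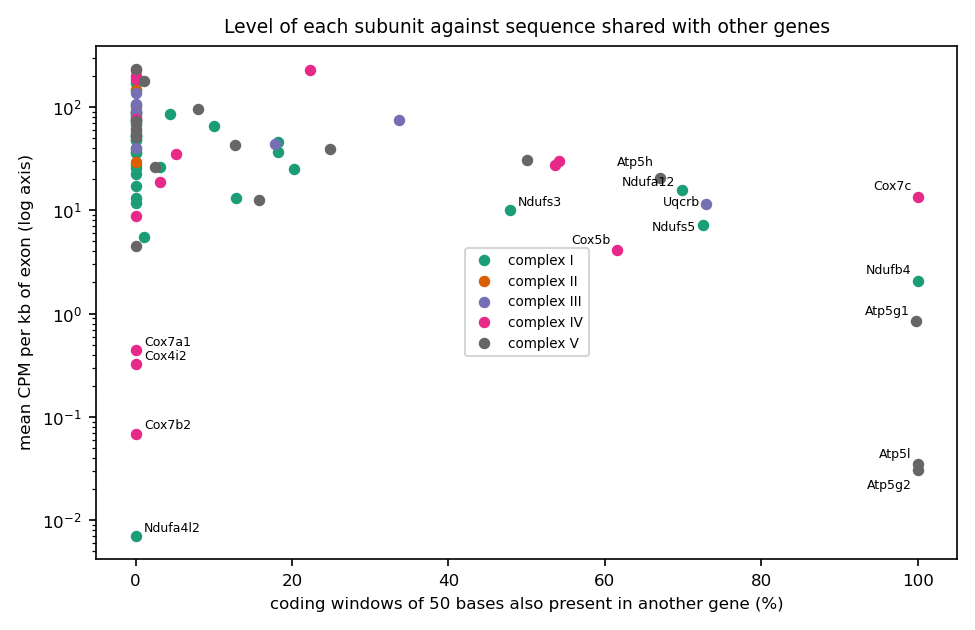
Mean CPM per kb of exon over all 10 libraries (y axis, log scale) of each subunit with at least 1 count, against the share of its 50-base coding windows that also occur in another gene (x axis, percent); colours mark the complexes. Genes at or near 100% lie at or below 13.6 CPM per kb, while Cox4i2, Cox7a1, Cox7b2 and Ndufa4l2 are low with no shared window.

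Promoters are shown for the subunit with the smallest p in each direction, Atp5b and Cox6a1, from RefSeq on GRCm38.p6, from 250 bases before to 50 bases after the gene start. They lie at chr10:128083057-128083356 (plus strand) and chr5:115348909-115349208 (minus strand). Capitals mark matches to motifs of factors known from mammals as regulators of respiratory genes: NRF1 (GCGCANGCG), the ETS family that includes GABPA (CCGGAAG), YY1 (AAGATGGC) and the ERR family (TCAAGGTCA), on both strands.
Atp5b: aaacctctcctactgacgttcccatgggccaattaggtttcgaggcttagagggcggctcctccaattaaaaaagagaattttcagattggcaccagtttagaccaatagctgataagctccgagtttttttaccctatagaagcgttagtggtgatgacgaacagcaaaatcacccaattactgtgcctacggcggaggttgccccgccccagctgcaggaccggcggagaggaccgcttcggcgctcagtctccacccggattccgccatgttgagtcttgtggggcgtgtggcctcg
Cox6a1: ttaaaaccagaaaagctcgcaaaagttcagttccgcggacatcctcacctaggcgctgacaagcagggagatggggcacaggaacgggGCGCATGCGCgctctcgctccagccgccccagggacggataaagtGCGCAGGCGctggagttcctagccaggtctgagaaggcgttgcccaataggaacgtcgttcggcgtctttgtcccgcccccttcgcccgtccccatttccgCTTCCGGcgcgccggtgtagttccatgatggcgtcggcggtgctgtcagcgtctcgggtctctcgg
The Cox6a1 window holds NRF1 letters at positions 89, 90 and 134 from its first base and ETS letters at 235. The NRF1 motif is nearly its own reverse complement, so the matches at 89 and 90 are the same stretch read on both strands, and ETS and YY1 letters can share bases where they meet. The Atp5b window holds none of the 4 motifs, which says only that these letters are not in this window. Of the 75 tested subunits 61 had a promoter in the table. NRF1 letters occurred in 27.9% of them, against 14.4% of the promoters of all tested genes and 6.47% of all promoters. ETS letters occurred in 23% of them (19.6% and 9.12% in the same 2 backgrounds), YY1 letters in 13.1% (5.05% and 2.88%) and ERR letters in 3.28% (0.244% and 0.407%). The ERR share rests on 2 promoters and the YY1 share on 8.

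Over 14 lists of other mitochondrial and glycolysis genes, 10 of the 220 tested were called, 4.55%, beside 6.79% of all genes. Among assembly factors, 1 of 15 for complex I was called higher, Acad9, which is also an acyl-CoA dehydrogenase (46.7 ± 4.26 CPM in LAIR1KO, 36.4 ± 1.29 CPM in WT, log2 fold change 0.36 ± 0.10, edgeR adjusted p = 0.0484), and it was lost whenever 1 library was left out. None was called among 4 tested for complex II, 6 for complex III, 19 for complex IV and 4 for complex V. Of 13 genes of coenzyme Q synthesis 1 was called higher, Pdss1, which makes the isoprenoid tail (16.4 ± 1.22 CPM in LAIR1KO, 9.39 ± 1.56 CPM in WT, log2 fold change 0.80 ± 0.15, edgeR adjusted p = 0.00705). Of 12 genes of mitochondrial DNA replication and transcription 2 were called higher, the exonuclease Mgme1 (0.48 ± 0.11) and the helicase Twnk (0.74 ± 0.20). The calls in this list numbered 0 without LAIR1KO replicate 4 or 5 or WT replicate 2 or 3, and 1 without WT replicate 1, 4 or 5. Of 17 genes of pyruvate dehydrogenase and the citric acid cycle 2 were called higher. Idh2, the NADP-dependent isocitrate dehydrogenase, was at 140, 151, 113, 181 and 193 CPM in LAIR1KO, against 51.9, 84.0, 64.0, 78.0 and 89.5 CPM in WT (log2 fold change 1.08 ± 0.17, edgeR adjusted p = 0.00259). Idh3a, a subunit of the NAD-dependent enzyme, was at 97.1, 102, 103, 117 and 105 CPM in LAIR1KO, against 63.2, 75.3, 63.6, 73.5 and 75.3 CPM in WT (log2 fold change 0.58 ± 0.09, edgeR adjusted p = 0.00306). For both enzymes the groups did not overlap.

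Of 17 glycolysis genes 1 was called higher, the hexokinase Hk3 (0.68 ± 0.11). Of 77 mitochondrial ribosomal proteins tested 2 were called higher, Mrpl12 (0.53 ± 0.11) and Mrps27 (0.56 ± 0.13), and 1 lower, Mrpl52 (-0.57 ± 0.15). Higher calls numbered 1 without LAIR1KO replicate 1 or 4 or WT replicate 1 or 3, and 3 without LAIR1KO replicate 3. Lower calls numbered 1 without LAIR1KO replicate 1 or 3 or WT replicate 5, and 0 without any other library. None was called among 13 genes of mitochondrial protein import, 8 tested transcription factors and coactivators of respiratory genes, and 6 subunits and carriers outside the symbol rule. Without LAIR1KO replicate 3, 1 import gene was called higher, without LAIR1KO replicate 2, 1 complex IV assembly factor, and without WT replicate 4 the calls in coenzyme Q synthesis numbered 2. The members left out for their place on chromosome 7 were Ndufa3, with a log2 fold change of -0.34 (edgeR adjusted p = 0.222), and Cox6b2, a testis form, which was higher at 1.17 (edgeR adjusted p = 0.0252). Both start within the region of the targeted gene, at 3617373 and 4751792 on chromosome 7 of GRCm38, and a difference there cannot be told apart from one in the linked DNA of the knockout.

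With DESeq2, which called 11.3% of all genes, 5 subunits passed: Atp5b, Atp5o and Atp5s higher, and Cox6a1 and Ndufa6 lower. With library totals, which called 10.2% of all genes, 6 passed, all higher: Atp5b, Atp5o, Atp5s, Ndufa10, Ndufs1 and Uqcrc2.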

How the data were processed

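RNA sequencing of 5 LAIR1KO and 5 WT samples was deposited as 1 table of raw read counts per Ensembl gene, to which the authors had applied no normalization as far as the values show (whole numbers with unequal totals). Alignment used GSNAP and GRCm38.p5, per the submitters' processing notes. The counting tool, strand setting, read length and treatment of reads with several matches are unstated there. Columns were matched to samples by the identifier in the sample titles, and 52489 gene identifiers to GENCODE M21 on GRCm38.

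Genes were kept with filterByExpr (minimum count 10, minimum total 15), scaled with TMM and tested in edgeR 4.0.16 (R 4.3.3) by the quasi-likelihood test without covariates. The Benjamini-Hochberg adjustment ran over all genes kept, with a threshold of 0.05. Adjusted p-values are two-sided, from edgeR except where DESeq2 is named. The SE is the fold change divided by the root of the F statistic. CPM per kb uses the union of a gene's exons. The fits were tested on simulated data.

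The members, gene lists and most alternatives were chosen with earlier results of these data known, and the grouping of subunits by role and the 900-base limit after the values were seen. Genes are named by rule: subunits past the threshold, the 2 smallest p and 2 highest levels per complex, isoform groups, subunits removed by the filter, and called members of the other lists. Further subunits were named from their values. Whether every library is a separate animal is not stated in the labels, and p-values then measure only the spread between libraries, which may be technical. No library repeated another within sampling noise (chi-square divided by its degrees of freedom was 14.4 to 71.0 between libraries of a group).

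Alternatives were RLE, upper-quartile and library-total scaling, no filter or a minimum of 1 CPM in 5 libraries, a replicate block, removal of GC and length trends, DESeq2 1.42.0, limma voom 3.58.1, an adjusted p under 0.1, and leaving out libraries. Adding Ndufa3 and Cox6b2 back was chosen after the data were seen.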

Additional observations from a re-analysis of the deposited data

Results flagged for a closer look

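In 202 sets of 5 values (the tested subunits, the mitochondrially encoded subunits, called genes of the other mitochondrial lists and the sums by complex, each within 1 genotype), 3 libraries lay far from the rest of their group. Such a flag arises by chance in about 1 in 20 sets. Ndufa7 was at 35.2 CPM in LAIR1KO replicate 5, where the nearest LAIR1KO library had 43.7 CPM. The other two were in WT: Uqcrfs1 was at 132 CPM in WT replicate 5, with the nearest library at 154 CPM, and Cox7c was at 17.9 CPM in WT replicate 4, with the nearest at 13.1 CPM.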

How the results depend on the processing

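For the 24 subunits named by rule, 521 of 552 values under alternative settings kept the direction and the side of the threshold, and 10 turned sign, all of subunits that were not called. Of 1150 counts for the other lists, 114 moved, either by over 1.5 times or between 0 and a higher count, which can be a single gene. The median log2 fold change of the subunits stayed below 0 except with library totals, where it was 0.0196 (complex I 0.0196, complex II 0.159, complex III 0.0335, complex V 0.0805), while all genes moved to 0.13. With library totals Cox7a2 was at 0.0185, Uqcr10 at 0.0844 and Uqcrfs1 at 0.0335. With GC and length trends removed Sdha was at -0.0045 and Uqcr10 at 0.0311 (-0.0045 and 0.0462 with the replicate block added), and without WT replicates 1 and 4 Cox7a2 was at 0.0023 and Uqcr10 at 0.12. Relative to all genes, the subunit median of -0.11 came to -0.05 with those trends removed. Leaving out 1 library put Uqcr10 between -0.15 and 0.0366 and the subunit median between -0.15 and -0.07.

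The subunits called higher numbered 0 with upper-quartile scaling, no filter, the replicate block, GC and length trends removed (with or without the block), without LAIR1KO replicates 4 and 5 and without WT replicates 1 and 4. They numbered 6 with library totals, 3 with DESeq2 (2 lower) and 2 with an adjusted p under 0.1 (1 lower). Leaving out 1 library gave 0 to 1 higher and 0 to 1 lower. Over all genes 914 passed, 1379 with library totals, 1516 with DESeq2, 1474 with an adjusted p under 0.1, 600 with the replicate block, 535 to 1170 with 1 library left out, 376 without LAIR1KO replicates 4 and 5, and 338 without WT replicates 1 and 4. Ranking by coding length shared 5 and by longest transcript 6 of the 10 leading subunits. The cause of these shifts was not tested.

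The replicate numbers did not pair the samples: deviations of same-numbered libraries correlated between -0.08 and 0.05, so the block is only an alternative. With it Atp5b stood at 0.30 with an edgeR adjusted p of 0.108. With 5 libraries per genotype, a difference the size of that of Atp5b passed in some fits and not in others, and of the 8 subunits with the lowest counts, 6 entered only the fit with no filter, where 0 were called, and Cox8b and Cox8c had no counts.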
